A study of Mus musculus with 4 samples.

Results

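The cohesin subunits described here are 9 genes, chosen by name from the 23980 genes of the deposited table. The 4 meiotic members are Rec8, Rad21l, Smc1b and Stag3, and the 5 mitotic members are Rad21, Smc1a, Smc3, Stag1 and Stag2. All 9 were listed in the table and detected in every library. RNA came from leptotene/zygotene (L/Z) spermatocytes, germ cells in early meiotic prophase, sorted by flow cytometry from mice aged 3 to 4 weeks after birth. Every animal was an F1 hybrid of C57BL6/J and MSM/Ms. The genotypes were a Dnmt3L heterozygote (Dnmt3L_Het), a Pld6 wild type (WT), a Pld6 knockout (KO) and a Dnmt3L KO, with 1 library of each. The Dnmt3L heterozygote and the Pld6 WT served as controls, so the spread between the controls includes a difference in genotype and in mouse line. Dnmt3l encodes a cofactor of de novo DNA methylation and Pld6 a mitochondrial outer membrane protein needed to make piRNAs. To reach the F1 background, heterozygotes of each line were crossed repeatedly to MSM/Ms before a last cross to heterozygotes of C57BL6/J background. Germ cells of either knockout are known to be lost in meiotic prophase. The sources used here do not say whether a library was made from 1 animal or from several.

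Cohesin is a ring that holds sister chromatids together. Each ring has a pair of SMC proteins, a kleisin that closes them and a STAG protein bound to the kleisin. Most cells use Smc1a and Smc3 with the kleisin Rad21 and with Stag1 or Stag2. Spermatocytes add Smc1b in place of Smc1a, the kleisins Rec8 and Rad21l, and Stag3, while Smc3 serves in meiotic and mitotic rings alike. Meiotic cohesin forms the core to which the axial elements of the synaptonemal complex attach, and Rec8 is cleaved in a stepwise manner at the meiotic divisions.

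In the GRCm38.p6 assembly the genes of the meiotic subunits lie on 4 chromosomes: Rec8 at chr14:55618002-55625395, Rad21l at chr2:151644366-151670622, Smc1b at chr15:85064689-85131957 and Stag3 at chr5:138272514-138312397. Of the mitotic subunits, Rad21 (chr15:51962604-51993538) shares a chromosome with Smc1b, Smc3 is at chr19:53600396-53645831 and Stag1 at chr9:100597709-100958544. Smc1a (chrX:152016428-152061973) and Stag2 (chrX:42149297-42277186) are on the X chromosome. Promoter windows from 250 bases before to 30 bases after an annotated start were available from RefSeq for 7 of the 9 genes, all but Rad21 and Stag2. The windows of 3 meiotic genes are given here, because Smc1b and Stag3 had RNA levels that moved together across the libraries while Rec8 had another order. They are read 5′ to 3′ on the strand of the gene, and capitals mark TCCCGC, the core of sites bound by E2F factors, or CACGTG, the core E-box. The windows lie at chr15:85131928-85132207 (minus strand), chr5:138280259-138280538 (plus strand) and chr14:55617916-55618195 (plus strand).
Smc1b: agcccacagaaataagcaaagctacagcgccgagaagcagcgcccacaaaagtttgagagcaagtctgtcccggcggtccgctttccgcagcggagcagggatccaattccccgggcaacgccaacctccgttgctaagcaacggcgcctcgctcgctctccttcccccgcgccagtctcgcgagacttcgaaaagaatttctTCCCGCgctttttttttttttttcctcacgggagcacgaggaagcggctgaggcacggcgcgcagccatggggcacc
Stag3: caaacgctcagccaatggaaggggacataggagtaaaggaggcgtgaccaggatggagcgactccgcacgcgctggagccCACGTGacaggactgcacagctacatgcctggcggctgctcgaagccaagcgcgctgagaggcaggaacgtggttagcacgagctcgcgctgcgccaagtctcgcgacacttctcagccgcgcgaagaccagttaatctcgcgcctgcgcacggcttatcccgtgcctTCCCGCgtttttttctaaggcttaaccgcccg
Rec8: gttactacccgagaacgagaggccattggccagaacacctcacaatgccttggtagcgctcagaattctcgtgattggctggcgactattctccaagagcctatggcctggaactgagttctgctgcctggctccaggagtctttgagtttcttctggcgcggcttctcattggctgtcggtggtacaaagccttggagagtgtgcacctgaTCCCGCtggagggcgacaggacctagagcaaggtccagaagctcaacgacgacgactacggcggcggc

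The letters TCCCGC, searched on both strands, were in 5 of the 7 windows, and in 18.8% of 32851 mouse promoter windows of that length. The match began 47 bases upstream of the start in Smc1b, 2 bases upstream in Stag3 and 38 bases upstream in Rec8. Stag1 had it 15 bases upstream and Smc3, on the other strand, 116 bases upstream. It was thus in 3 of 4 meiotic and 2 of 3 mitotic windows. Windows with at least 16 CpG, the number in Rec8, held TCCCGC in 45.2% of cases, and Smc1b had 28 CpG and Stag3 30 against a median of 6 in all windows. CACGTG was in Stag3 alone of the 7 windows, 170 bases upstream, and in 6.79% of all windows; the matches of the 2 motifs did not overlap. The Rad21l window had 1 CpG and neither motif, and its start lies 2089 bases inside the annotated gene. Rad21l RNA had the same order of libraries as Smc1b and Stag3, while Rec8, with another order, had TCCCGC. Among the meiotic genes the letters thus did not follow the order of the libraries. The Stag3 start lies 7995 bases inside its gene and the Rec8 start 164 bases, whereas that of Smc1b is the gene's first base. A match of letters is no evidence of binding.

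Levels are given as FPKM, fragment counts divided by gene length and by the depth of the library, as scaled by the authors' tool. A library held between 30439943 (Pld6 KO) and 63875934 (Dnmt3L heterozygote) fragments in genes, and the counting error of a subunit in a library was at most 2.85% of its value. The targeted genes were checked first. Pld6 was at 0.334 FPKM in the Pld6 KO against 8.55 to 19.5 FPKM in the other libraries, and Dnmt3l was at 0 FPKM in the Dnmt3L KO, with 0.432 to 1.27 FPKM elsewhere. All 19 markers of L/Z spermatocytes were detected in each library, with a summed level of 2107 FPKM in the Dnmt3L heterozygote, 3586 in the Pld6 WT, 2044 in the Pld6 KO and 1293 in the Dnmt3L KO. Markers of other cells set the libraries apart. The 12 Sertoli cell markers summed to 5113 FPKM in the Dnmt3L heterozygote and 6786 in the Dnmt3L KO, but 231 in the Pld6 WT and 515 in the Pld6 KO. The 12 spermatid markers summed to 7011 FPKM in the Dnmt3L heterozygote, 169 in the Pld6 WT, 13.8 in the Pld6 KO and 29.3 in the Dnmt3L KO. The Sertoli sum thus exceeded the L/Z sum in both libraries of the Dnmt3L line, though these were sorted as L/Z spermatocytes. A sum over a list is not a share of cells. In such bulk samples fewer cells of a type and less RNA per cell cannot be told apart.

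Smc1b, the meiotic SMC1 protein, was the most abundant subunit in every library. It was at 132 FPKM in the Dnmt3L heterozygote, 331 in the Pld6 WT, 206 in the Pld6 KO and 116 in the Dnmt3L KO. The Pld6 WT was highest and the Dnmt3L KO lowest, and these levels stood at or above the 93.8th percentile of the 14416 genes with a mean of at least 1 FPKM. Stag3, the meiotic STAG protein, came next, except in the Dnmt3L KO, where Rad21 was above it. Its levels were 95.2 FPKM in the Dnmt3L heterozygote, 206 in the Pld6 WT, 160 in the Pld6 KO and 81.2 in the Dnmt3L KO, the same order of libraries as for Smc1b. Rad21l, a kleisin confined to meiosis, also followed that order, with 26.8 FPKM in the Dnmt3L heterozygote, 56.0 in the Pld6 WT, 34.7 in the Pld6 KO and 17.8 in the Dnmt3L KO. Of all 14416 genes, 5.74% had this order (Pld6 WT, Pld6 KO, Dnmt3L heterozygote, Dnmt3L KO, from high to low). The highest library exceeded the lowest by 3.15-fold for Rad21l, 2.85-fold for Smc1b and 2.54-fold for Stag3.

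Rec8, the kleisin of meiotic sister cohesion, did not share that order. It was at 34.7 FPKM in the Dnmt3L heterozygote, 24.1 in the Pld6 WT, 30.0 in the Pld6 KO and 31.2 in the Dnmt3L KO. Thus Rec8 was lowest in the library where the other meiotic subunits were highest, and its whole range was 1.44-fold. Both mutants lay between the controls.

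Among the mitotic subunits Rad21, the kleisin of dividing cells, was the most abundant in the Dnmt3L heterozygote and the Dnmt3L KO, and Smc3 in the Pld6 WT and Pld6 KO. Rad21 was at 65.5 FPKM in the Dnmt3L heterozygote, 87.3 in the Pld6 WT, 76.8 in the Pld6 KO and 108 in the Dnmt3L KO. Smc3, the partner of both SMC1 proteins, was at 53.3 FPKM in the Dnmt3L heterozygote, 91.0 in the Pld6 WT, 82.5 in the Pld6 KO and 60.0 in the Dnmt3L KO. Stag1 was at 34.2, 58.5, 57.9 and 44.0 FPKM in the same order of libraries. For Smc3 and Stag1 the libraries of the Pld6 line were above those of the Dnmt3L line, and both mutants lay between the controls. The X-linked members were the least abundant of the mitotic set. Smc1a was at 19.1 FPKM in the Dnmt3L heterozygote, 18.8 in the Pld6 WT, 23.8 in the Pld6 KO and 28.4 in the Dnmt3L KO, so that its controls were nearly equal and each mutant was above both. Stag2 was at 19.7, 24.2, 26.0 and 27.3 FPKM in those libraries and was likewise highest in the mutants.

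**Figure D1:**
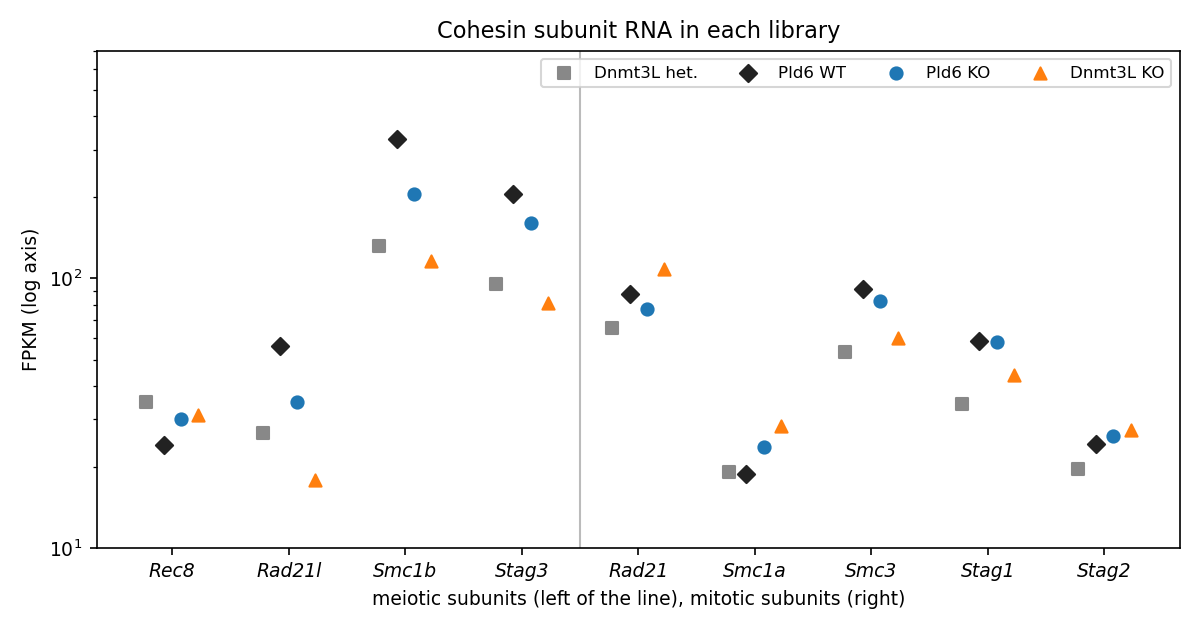
FPKM (log axis) of the 9 cohesin subunits in the 4 libraries, 1 point per library, with the meiotic subunits left of the line. Smc1b, Stag3 and Rad21l were highest in the Pld6 WT and lowest in the Dnmt3L KO, whereas Rad21, Smc1a and Stag2 were highest in the Dnmt3L KO.

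The controls differed from each other more in 3 of 4 meiotic subunits than in any mitotic one. On the log2(FPKM + 1) scale, the Dnmt3L heterozygote minus the Pld6 WT was -1.32 for Smc1b, -1.10 for Stag3, -1.04 for Rad21l and 0.51 for Rec8. It was -0.76 for Smc3 and Stag1, -0.41 for Rad21, -0.29 for Stag2 and 0.02 for Smc1a, so Rec8 differed less than Smc3 and Stag1. The median was -1.07 over the 4 meiotic subunits and -0.41 over the 5 mitotic ones, against 0.06 over the 14416 genes. At least a 2-fold difference between the controls was seen for 3 of 4 meiotic and 0 of 5 mitotic subunits, and 6.1% of all genes were lower and 17.6% higher by that much in the heterozygote. The L/Z markers had a median of -0.86 in the same comparison, and all 12 Sertoli markers were over 2-fold higher in the heterozygote. The part of these differences in the subunit values was not tested.

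Whether loss of Pld6 alters cohesin RNA was asked by setting the Pld6 KO library against both controls. No subunit lay more than 2-fold beyond both, where 1.51% of all genes were higher and 8.57% lower by that rule. The change against the mean of the controls ranged from -0.25 for Rad21l to 0.31 for Smc1a and Stag1 on the log2(FPKM + 1) scale. The median change was -0.07 for meiotic and 0.23 for mitotic subunits, against -0.05 for all genes. Against the Dnmt3L heterozygote alone 3 of 4 meiotic subunits were higher (47.2% of all genes), and against the Pld6 WT alone 3 of 4 were lower (49.2% of all genes), so the direction of the meiotic set turned on the control. At any size of difference, 7 of the 9 subunits, including all 4 meiotic ones, lay between the controls. Smc1a and Stag2 were above both, at 124% and 107% of the higher control, and 31% of all genes were above both and 32.4% below both. In edgeR's quasi-likelihood model 0 of 9 subunits passed an adjusted p of 0.05, and 0 had an unadjusted p under that value; the adjusted p was 1 for each, and DESeq2 called 0. Of all 18657 genes tested, 0 passed in edgeR, with 0.547% higher and 7.41% lower at the unadjusted level, whereas DESeq2 called 0.0843% higher and 5.38% lower of 17801.

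In the Dnmt3L KO 3 of 4 meiotic and 3 of 5 mitotic subunits lay on opposite sides of the controls, though within the 2-fold limit. Rad21l, Smc1b and Stag3 were below both controls, at 66.5%, 87.7% and 85.3% of the lower one. Rad21, Smc1a and Stag2 were above both, at 124%, 148% and 113% of the higher one. Rec8, Smc3 and Stag1 lay between them. The change against the control mean was -1.17 for Rad21l, -0.99 for Smc1b and -0.88 for Stag3, while that of Rec8 was 0.09. It was 0.49 for Rad21, 0.56 for Smc1a and 0.30 for Stag2, and -0.26 and -0.08 for Smc3 and Stag1. The median was -0.94 over the meiotic and 0.30 over the mitotic subunits, against -0.02 over all genes. Against the Pld6 WT alone, Rad21l, Smc1b and Stag3 were over 2-fold lower, as were 13.7% of all genes, and against the Dnmt3L heterozygote alone 0 subunits were.

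A position beyond both controls was common in the Dnmt3L KO. Of the 14416 genes, 35.5% were above both and 34% below both at any size of difference, 69.5% together, so 6 of 9 subunits is near the share of all genes. By the 2-fold rule 0 of 9 were called, with 3.29% of all genes higher and 9.16% lower. The smallest adjusted p of the subunits in edgeR's model was 0.814, for Rad21l, with a log2 change of -1.24 ± 0.783 (SE) and an unadjusted p of 0.164. Thus 0 of 9 subunits passed in edgeR, 0 at the unadjusted level and 0 in DESeq2. Over all genes edgeR called 0 as well, with 1.09% higher and 7.72% lower at the unadjusted level, and DESeq2 called 0.0955% higher and 5.16% lower. With 1 residual degree of freedom among the samples, a difference of the size seen for Rad21l could not be told from the spread between the controls. Pld6 in the Pld6 KO, at a log2 change of -6.00, did not pass edgeR's adjusted p either. Nor did Dnmt3l in the Dnmt3L KO, at -8.97. A subunit not passing there thus says little about whether its RNA changed.

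The L/Z markers were lower beside the meiotic subunits: 17 of 19 were below both controls in the Dnmt3L KO, 2 of them by over 2-fold, with a median change of -1.13. All 12 Sertoli markers were above both controls there. When the changes were centred on the L/Z markers, Smc1b was at 0.14, Stag3 at 0.24, Rad21l at -0.05 and Rec8 at 1.21. This centring raises every gene by the same amount against a given control, and with it 81.9% of all genes were above both controls and 7.46% below both. The counts of subunits, with Rec8, Stag3 and all 5 mitotic members above both and 0 members below both, are to be read against those shares. The part of the cell mixture in these values was not tested.

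**Figure D2:**
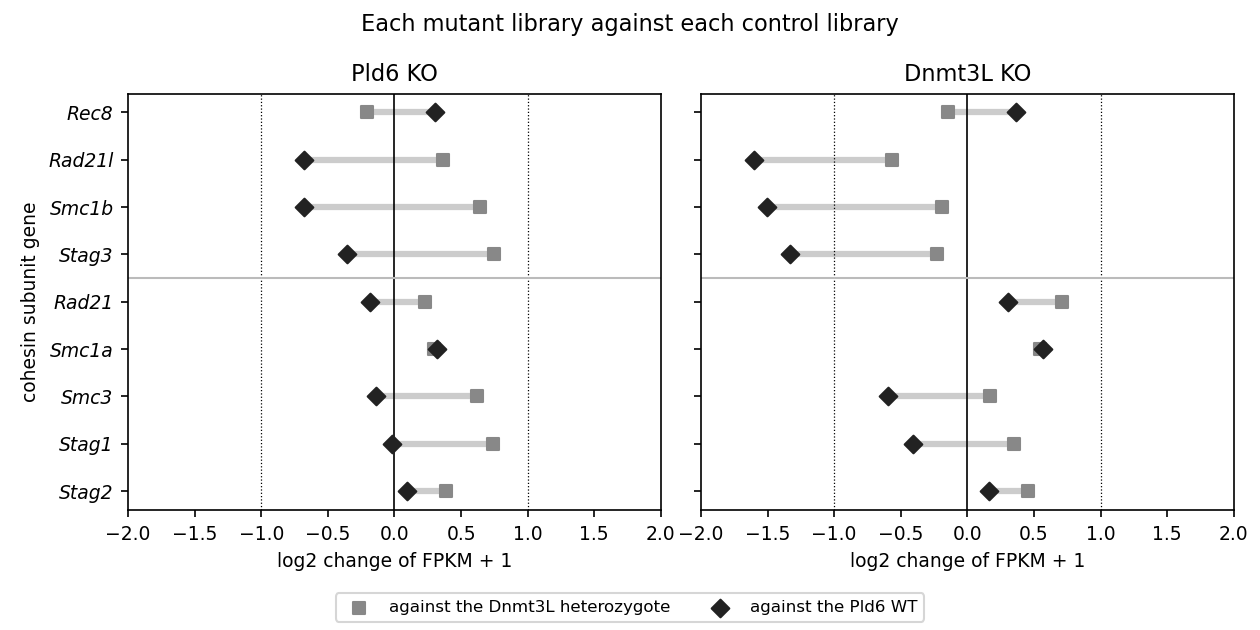
log2 change of FPKM + 1 of each subunit in the Pld6 KO (left) and the Dnmt3L KO (right) against the Dnmt3L heterozygote (square) and the Pld6 WT (diamond), with dotted lines at a 2-fold change. In the Dnmt3L KO, Rad21l, Smc1b and Stag3 are left of 0 against both controls and over 2-fold lower only against the Pld6 WT, while Rad21, Smc1a and Stag2 are right of 0 against both.

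Ratios of partners within a library do not depend on how the libraries were scaled to each other, but they can vary with its mixture of cells. Sertoli markers summed to 5113 FPKM in the Dnmt3L heterozygote, 231 in the Pld6 WT, 515 in the Pld6 KO and 6786 in the Dnmt3L KO. That is the reverse of the order of Smc1b over Smc1a, though not of Rec8 over Rad21. The part of the mixture in the ratios was not tested. The 95% intervals of the ratios cover counting error only. Smc1b over Smc1a, the meiotic over the mitotic SMC1, was 6.91 (6.71 to 7.13) in the Dnmt3L heterozygote, 17.6 (16.9 to 18.2) in the Pld6 WT, 8.69 (8.36 to 9.03) in the Pld6 KO and 4.09 (3.96 to 4.21) in the Dnmt3L KO. Smc1b thus exceeded its paralog in all 4 libraries, with the Pld6 KO between the controls and the Dnmt3L KO below both. Stag3 over the sum of Stag1 and Stag2 was 1.77, 2.49, 1.91 and 1.14 in these libraries, the same pattern. Rad21l over Rad21 had it too, at 0.409, 0.641, 0.452 and 0.165. For the kleisins the mitotic form was the more abundant everywhere.

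Rec8 over Rad21 was 0.530 in the Dnmt3L heterozygote, 0.275 in the Pld6 WT, 0.391 in the Pld6 KO and 0.289 in the Dnmt3L KO, with both mutants between the controls. The balance of the meiotic kleisins, Rad21l over Rec8, was 0.772 (0.734 to 0.811), 2.33 (2.20 to 2.46), 1.16 (1.08 to 1.24) and 0.570 (0.533 to 0.610) in that order of libraries. Rad21l RNA therefore exceeded Rec8 RNA in the libraries of the Pld6 line and was below it in those of the Dnmt3L line. Smc1b over Stag3 varied less, between 1.29 (Pld6 KO) and 1.61 (Pld6 WT). The 4 meiotic subunits summed to 1.51 times the 5 mitotic ones in the Dnmt3L heterozygote, 2.20 times in the Pld6 WT, 1.62 times in the Pld6 KO and 0.920 times in the Dnmt3L KO, the only library below 1. The meiotic sum was 289, 617, 431 and 246 FPKM and the mitotic sum 192, 280, 267 and 268 FPKM. The mitotic sum includes Smc3, which serves in rings of both kinds, at 60.0 FPKM in the Dnmt3L KO. That is more than the gap between the sums there, so the value below 1 depends on where Smc3 is counted. Each of these ratios has 1 value per genotype and no replicate check.

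**Figure D3:**
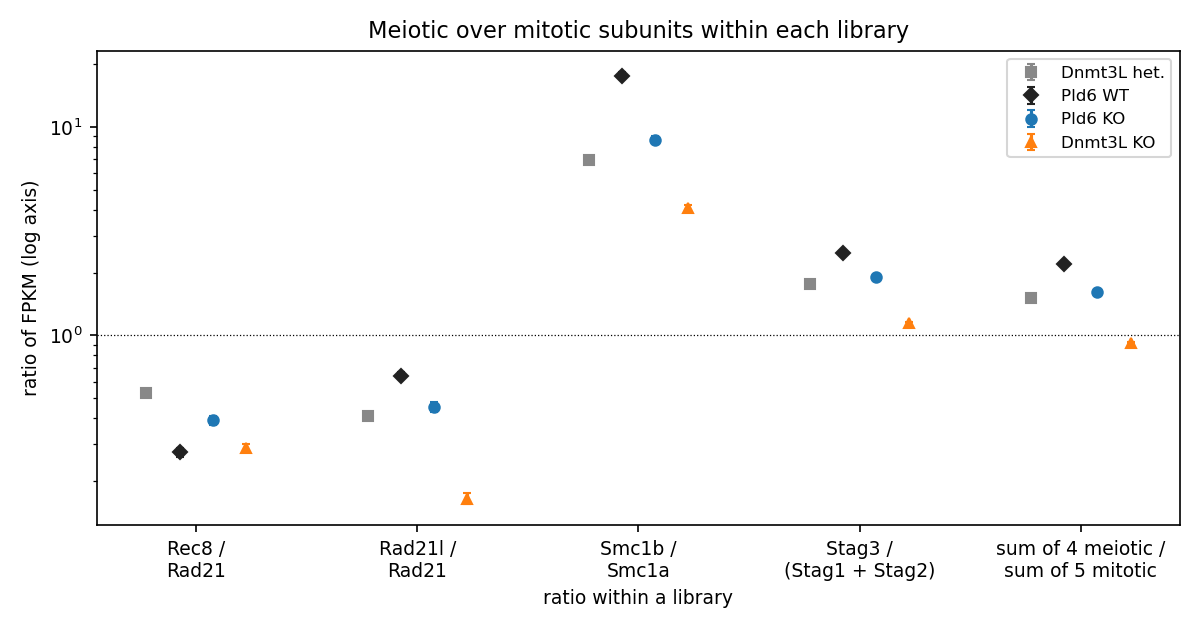
Ratio of FPKM (log axis) between meiotic and mitotic partners within each library, with 95% intervals for counting error as bars, mostly smaller than the points. The Dnmt3L KO was lowest in 4 of the 5 ratios, all but Rec8 over Rad21, and the Pld6 KO lay between the controls in all 5.

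Set against the L/Z markers of its own library, Smc1b was 0.0627 of their summed FPKM in the Dnmt3L heterozygote, 0.0922 in the Pld6 WT, 0.101 in the Pld6 KO and 0.0897 in the Dnmt3L KO. On this measure the Dnmt3L KO lay between the controls. Stag3 was at 0.0452, 0.0574, 0.0784 and 0.0628, with each mutant above both controls. Rec8 was at 0.0165, 0.00671, 0.0147 and 0.0242, and was highest in the Dnmt3L KO. A lower level per L/Z marker in the Dnmt3L KO than in both controls was thus not seen for Smc1b, Stag3, Rec8 or Rad21l (0.0127, 0.0156, 0.0170 and 0.0138). The marker sum was itself lowest in the Dnmt3L KO, so dividing by it raised every gene there relative to both controls. Centred on the median of these markers, 81.9% of all genes were above both controls in the Dnmt3L KO and 7.46% below both. Little can therefore be read from the subunits not being lower on this measure. The markers of pachytene spermatocytes, a later stage, summed to 1372, 924, 322 and 271 FPKM in these libraries and those of spermatogonia to 655, 898, 908 and 670 FPKM. Leydig cell markers summed to 378, 27.9, 245 and 398 FPKM, macrophage markers to 131, 33.6, 61.6 and 142 FPKM, and peritubular and vascular markers to 645, 157, 669 and 364 FPKM. Markers of these lists at 0 in at least 1 library were Acrv1 and Tssk3 (spermatid) and Cd163 (macrophage).

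**Figure D4:**
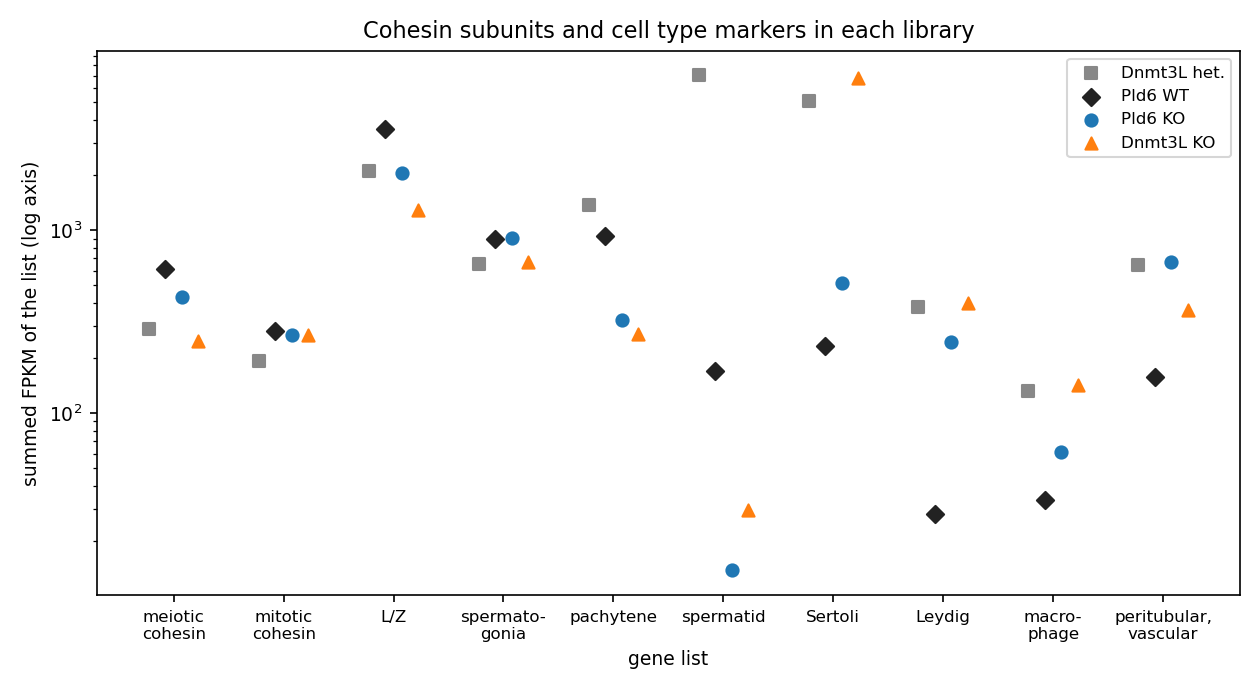
Summed FPKM (log axis) of the meiotic and mitotic cohesin subunits and of the marker lists of 8 cell types, 1 point per library. The meiotic subunits and the L/Z markers were both highest in the Pld6 WT and lowest in the Dnmt3L KO, the spermatid markers were far higher in the Dnmt3L heterozygote, and the Sertoli markers were high in that library and in the Dnmt3L KO.

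Each mutant was also compared with the control of its own line. In the Pld6 line (KO minus WT) the log2 change was -0.68 for Rad21l, -0.68 for Smc1b and -0.36 for Stag3, and 0.31 for Rec8. In the Dnmt3L line (KO minus heterozygote) it was -0.56 for Rad21l, -0.19 for Smc1b, -0.23 for Stag3 and -0.15 for Rec8. The same 3 meiotic subunits were therefore lower in the mutant of each line, while 49.2% of all genes were lower in the Pld6 line (50.5% higher) and 45.2% in the Dnmt3L line. Orders of the libraries with the mutant lower in both lines at once were held by 7.98%, 6.49%, 5.74%, 4.78%, 4.57% and 2.09% of all genes. None of the 9 subunits differed by 2-fold in either line, where 7.41% of all genes were that much higher and 9.95% lower in the Pld6 KO, and 4.61% higher and 12% lower in the Dnmt3L KO. All 5 mitotic subunits were higher in the Dnmt3L KO than in its heterozygote (54.1% of all genes were), by 0.71 for Rad21, 0.55 for Smc1a, 0.45 for Stag2, 0.35 for Stag1 and 0.17 for Smc3. In the Pld6 line 2 of the 5 were higher, Smc1a by 0.32 and Stag2 by 0.10, and Rad21, Smc3 and Stag1 were at -0.18, -0.14 and -0.02. The median was -0.52 for meiotic and -0.02 for mitotic subunits in the Pld6 line, and -0.21 and 0.45 in the Dnmt3L line. The 19 L/Z markers had a median of -0.70 in the Pld6 line and -0.64 in the Dnmt3L line. A lower level in the mutant of each line was thus not particular to the meiotic subunits. The part of the cell mixture in these values was not tested. An edgeR model with line as a block and 1 effect shared by the mutants, added after the values had been seen, gave Rad21l a log2 change of -0.68 ± 0.263 (SE), with an unadjusted p of 0.0325 and an adjusted p of 0.208. In that model 0 of 9 subunits passed the adjusted p and 1 the unadjusted level. Of all 18657 genes, 0.959% were higher and 6.32% lower at the adjusted p, and 7.42% and 11.4% at the unadjusted level.

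Factors that load, hold and release cohesin were followed with a list of 20 genes. In the Pld6 KO 10 of the 20 were above both controls, 2 below both and 8 between them, with a median change of 0.29, where 31% of all genes were above both and 32.4% below both. In the Dnmt3L KO 3 were above, 7 below and 10 between, with a median of -0.27, where 35.5% of all genes were above and 34% below. Against the Dnmt3L heterozygote alone 5 of the 20 were over 2-fold higher in the Pld6 KO (8.64% of all genes), and against the Pld6 WT alone 5 were over 2-fold lower in the Dnmt3L KO (13.7% of all genes). Meikin was the only one of the 20 that lay over 2-fold beyond both controls, and it was below them in each mutant, as were 8.57% of all genes in the Pld6 KO and 9.16% in the Dnmt3L KO, so a count of 1 in 20 does not exceed the share of all genes. Meikin, listed under the older symbol 4930404A10Rik, encodes a meiotic kinetochore protein that works with shugoshin to protect Rec8 at centromeres. Its level was 4.35 FPKM in the Dnmt3L heterozygote, 3.31 in the Pld6 WT, 0.264 in the Pld6 KO and 0.847 in the Dnmt3L KO, from 338, 161, 10 and 48 fragments. Both mutants lay below both controls, at -1.93 and -1.39 against the control mean on the log2(FPKM + 1) scale, which understates changes at such levels. The adjusted p in edgeR's model was 0.316 for the Pld6 KO and 0.674 for the Dnmt3L KO, and in DESeq2 it was 0.0412 and 0.560. The pachytene markers, given above, were likewise lower in both mutants, and their part in the Meikin value was not tested.

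Nipbl, the cohesin loader, was at 21.9 FPKM in the Dnmt3L heterozygote, 54.0 in the Pld6 WT, 39.0 in the Pld6 KO and 30.5 in the Dnmt3L KO. Wapl, the releasing factor, was at 47.0, 89.1, 67.9 and 67.0 FPKM. For both genes the mutants lay between controls that differed by 2.46-fold and 1.90-fold. Sgo2a, the shugoshin that shields Rec8 from cleavage, was at 10.7, 19.6, 20.8 and 8.46 FPKM, so the Pld6 KO was just above and the Dnmt3L KO just below the controls. Espl1, the separase that cuts the kleisins, was at 16.3, 36.7, 40.9 and 16.6 FPKM, above both controls in the Pld6 KO and between them in the Dnmt3L KO. None of the 20 passed the adjusted p in edgeR's model in either mutant; at the unadjusted level 1 did in the Pld6 KO and 0 in the Dnmt3L KO, and DESeq2 called 1 and 0. That gene was Meikin, and among all genes 7.41% were lower in the Pld6 KO at the unadjusted level and 5.38% in DESeq2. Of 14 genes of the related condensin and SMC5/6 complexes, 0 lay over 2-fold beyond both controls in either mutant, and their median change was 0.18 in the Pld6 KO and -0.26 in the Dnmt3L KO. By that rule 1.51% of all genes were higher and 8.57% lower in the Pld6 KO, and 3.29% and 9.16% in the Dnmt3L KO. A count of 0 in 14 does not set these genes apart from those shares. For these 14, 0 passed in edgeR, 0 at the unadjusted level and 0 in DESeq2 in each mutant.

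**Figure D5:**
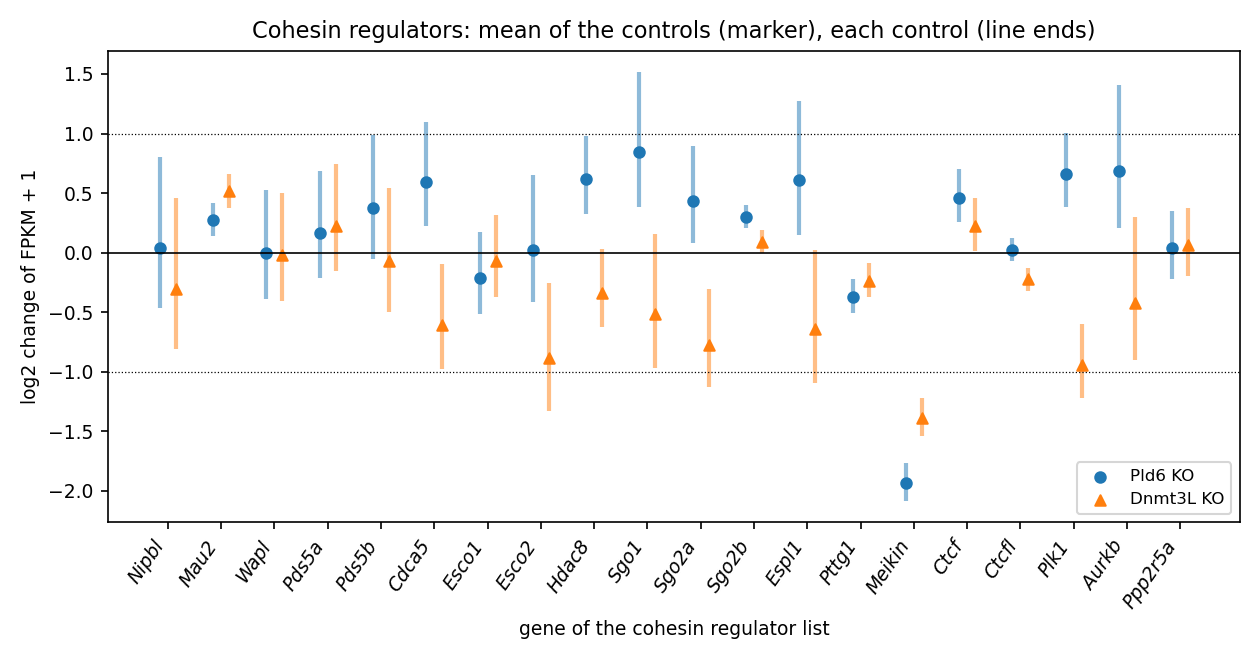
log2 change of FPKM + 1 of 20 cohesin regulators in the Pld6 KO (circles) and the Dnmt3L KO (triangles) against the mean of the controls, with lines that end at the change against each control and dotted lines at 2-fold. Meikin is the only gene whose whole line lies beyond 2-fold, at -1.93 and -1.39.

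The genes whose profile over the 4 libraries was nearest to the mean profile of the meiotic subunits were Aldoc, AI846148, Siah1b, Dtwd2 and Zfp473, with a root mean square distance of 0.016 to 0.031 on the centred log2 scale, among 14412 genes. That mean includes each meiotic subunit itself. It also includes Rec8, whose order of libraries differed, so it is flatter than the profiles of Smc1b, Stag3 and Rad21l. Aldoc, which encodes a glycolytic aldolase, was at 13.5 FPKM in the Dnmt3L heterozygote, 23.5 in the Pld6 WT, 18.1 in the Pld6 KO and 10.7 in the Dnmt3L KO. With 4 libraries many genes have such a profile: 582 of the other genes were nearer to the mean than Stag3 itself, at 0.169, and 1153 were nearer than Smc1b, at 0.220. Rec8 was at 0.547, farther than 52.2% of all the other genes. Of the mitotic subunits Smc3 was nearest, at 0.182, nearer than Rad21l at 0.206 or Smc1b, and Smc1a farthest, at 0.563.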

How the data were processed

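The 9 genes, the marker lists and the list of regulators were chosen with earlier results of these data known. PolyA RNA was read from 1 end for 50 bp with a strand-specific kit. The authors aligned reads with TopHat2 and ran Cuffdiff on RefSeq genes of mm10, with no finer version given in the sources used here. The deposited table holds estimated counts of fragments per gene and library, mostly whole numbers, which were rounded here before edgeR. It also holds FPKM, which the authors' tool scaled between libraries.

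A call required an FPKM + 1 over 2-fold above, or over 2-fold below, that of each control, and background shares are over the 14416 genes with a mean of at least 1 FPKM. Changes are log2((FPKM + 1)/(control mean + 1)). edgeR 4.0.16 (quasi-likelihood, TMM, 3 groups, Benjamini-Hochberg) and DESeq2 1.42.0 were run in R 4.3.3 over all genes. The edgeR fit was also run on simulated counts, whose outcome is not given here. With 3 groups, p-values measure the spread between 2 controls of unlike genotype. With line as a block, they rest instead on how far the effect of the mutants differed between the lines. Lists were matched to older symbols through RefSeq, whose promoter windows were used for GRCm38.p6, an assembly with mm10 coordinates. Intervals cover counting error only. Fragments carried no molecular identifiers, so amplified copies may have been counted as separate fragments and the intervals may be too narrow. Named beside the 9 subunits were Pld6, Dnmt3l, the regulators Nipbl, Wapl, Sgo2a and Espl1, up to 6 genes of each list beyond 2-fold, and the 5 genes of nearest profile. Alternatives were a pseudocount of 0.1, folds of 1.5 and 3, TMM-scaled counts, DESeq2 size factors, centring on L/Z markers, no filter and leaving out a control. Counts at any size of difference, and an edgeR model with line as a block and 1 effect shared by the mutants, were added after the values had been seen. Retrotransposon reads and allele-specific reads were not analysed here.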

Additional observations from a re-analysis of the deposited data

Results flagged for a closer look

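For 4 subunits the mutant moved in one direction from its own control in the Pld6 line and in the other direction in the Dnmt3L line. Rec8 was at a log2 change of 0.31 in the Pld6 line and -0.15 in the Dnmt3L line. Rad21 was at -0.18 in the Pld6 line and 0.71 in the Dnmt3L line. Smc3 was at -0.14 and 0.17, and Stag1 at -0.016 and 0.35, in the same order of lines. Stag1 was thus almost unchanged in the Pld6 line, at 98.9% of the Pld6 WT, where its counting error was up to 0.969%. Each log2 change compares 1 library with 1 other, and no test of the lines against each other was made. Orders with a higher Pld6 KO and lower Dnmt3L KO were held by 5.0%, 3.4%, 1.8%, 1.6%, 1.3% and 1.2% of all genes. Orders with these directions exchanged were held by 6.5%, 4.7%, 2.0%, 1.9%, 1.6% and 1.2%. The count of 4 of 9 subunits is to be read against those shares together.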

How the results depend on the processing

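The 2 controls decided most values that moved. Leaving out 1 control at a time gave, in the Pld6 KO, 1 to 3 meiotic subunits above and 1 to 3 below (0 and 0 with both controls), 2 to 5 mitotic subunits above and 0 to 3 below, 0 to 5 regulators over 2-fold higher, and a meiotic minus mitotic median from -0.50 to 0.11 (-0.30 with both), which changed sign to 0.11 without the Pld6 WT. In the Dnmt3L KO it gave 0 to 3 subunits over 2-fold lower, with Rad21l, Smc1b and Stag3 lower by that much without the Dnmt3L heterozygote, 0 to 1 meiotic subunits above, 3 to 5 mitotic above and 0 to 2 below, 1 to 5 regulators over 2-fold lower, and a meiotic minus mitotic median from -1.58 to -0.66 (-1.24 with both). Centred on L/Z markers, the Pld6 KO had 3 meiotic and 5 mitotic subunits above both controls and 1 regulator over 2-fold higher, with 42% of all genes above both and 4.58% over 2-fold higher. The Dnmt3L KO then had 2 meiotic and 5 mitotic subunits above, 0 meiotic below, 3 subunits and 5 regulators over 2-fold higher and 0 regulators lower, with 81.9% of all genes above both and 27.7% over 2-fold higher, since this centring raises every gene. With thresholds of 3-fold and 1.5-fold, 0 and 2 regulators were lower in the Dnmt3L KO. The other 103 of these values stayed within the spread or within 1.5 times the count. Over 6 alternatives Smc1a and Stag2 kept their sign in both mutants, and Rad21l and Rad21 in the Dnmt3L KO. Without a control edgeR has 0 residual degrees of freedom and was not run. The labels give no replicate numbers, and line as a block for each mutant apart leaves 0 residual degrees of freedom; with 1 effect shared by the mutants 0 of 9 subunits passed. Without the filter on low values, the share of all genes called lower in the Pld6 KO was 5.41% in place of 8.57%, and in the Dnmt3L KO 2.14% were higher in place of 3.29% and 5.78% lower in place of 9.16%. Counting error was up to 31.6% of the value for Meikin, and up to 1.88% for Smc1a, whose controls differed by 1.02-fold.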

Other observations

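The X-linked subunits Smc1a and Stag2 were the only members above both controls in both mutants, a feature chosen after the values were seen. Orders of the libraries with both mutants above both controls were held by 4.19%, 3.73%, 3.05% and 2.67% of all genes. The share of X-linked genes with such an order was not counted. Of 649 X-linked genes with a mean of at least 1 FPKM, 24.2% were above both controls in the Pld6 KO and 45.9% in the Dnmt3L KO, against 31.4% and 35.1% of 13677 autosomal genes. The median log2 change against the control mean was -0.21 in the Pld6 KO and 0.24 in the Dnmt3L KO for X-linked genes, and -0.05 and -0.02 for autosomal genes. In the Pld6 KO, Smc1a at 0.31 and Stag2 at 0.23 thus lay on the other side of 0 from the X-linked median, and in the Dnmt3L KO, at 0.56 and 0.30, on the same side. The controls differed as well: the Dnmt3L heterozygote minus the Pld6 WT had a median of 0.30 for X-linked and 0.06 for autosomal genes. The part of the line in the X-linked values was not tested.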
